A study of Mus musculus with 4 samples.

Results

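Heat shock proteins and their DnaJ partners were followed in liver RNA of polygenic obese mice. The genes were chosen by symbol, as every measured gene whose name starts with Hsp and a family letter from a to h with a number, with Hsp90, or with Dnaj, a letter from a to c and a number. This gave 67 of the 16504 genes with a single named symbol, measured by 90 features. No strain, age or sex is recorded in the labels used. The treated mice were fed conjugated linoleic acid (CLA, a family of isomers of linoleic acid), the controls linoleic acid (LA), and tissue was taken at day 14 of the trial. The RNA on an array came from pools, made of 5 or 4 samples each, and every array carried a CLA and an LA pool in different colours. Of the 4 arrays, numbers 1 and 2 had CLA in Cy5 with LA in Cy3, and the dyes were exchanged in numbers 3 and 4. Whether a pool was used on more than 1 array is not recorded, so the p-values speak only of how these 4 arrays scatter, which may be technical, and so small a number of arrays limits the precision.

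Chaperones keep other proteins folded. Hsp70 proteins bind exposed stretches of a chain and release them in a cycle driven by ATP, DnaJ proteins deliver the chain and start the cycle, and Hsp110 relatives help to exchange the nucleotide. Hsp90 proteins act later on signalling and other client proteins, and small heat shock proteins hold unfolded chains without ATP. The cytosol, the mitochondria and the endoplasmic reticulum (ER) each have their own set, and the ER set is heavily used in the liver, which secretes most plasma proteins. The heat shock factor Hsf1 is known to drive many of the cytosolic genes in stress, and the unfolded protein response drives the ER genes.

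The deposited values are log ratios of the 2 channels of an array. Their log base is not recorded in the labels used and was taken as 10, so each value was multiplied by 3.32 to give log2, and every value below would be smaller by that factor if the base were 2. Neither is it stated whether the ratios are Cy5 over Cy3 on every array or were already turned to CLA over LA. Each gene was therefore split into 2 parts. The dye-linked part is the share of the ratio that changes sign between the dye orientations, counted as positive when arrays 1 and 2 lie above arrays 3 and 4. The constant part is the mean of all 4 arrays. If the ratios are Cy5 over Cy3, the dye-linked part is CLA over LA and a negative value is a lower level with CLA. If they were already turned, the constant part is CLA over LA and the dye-linked part follows the dye. The direction is not settled here, so signs below describe the deposited values.

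Promoter stretches are shown for genes of the ER set and for genes with a heat shock element, because both elements bear on how these genes are known to be controlled. Sequences are RefSeq's for assembly GRCm38.p6, in which 54 of the 67 genes had an entry of 250 bases before and 50 after the start. The ER stress element was searched as CCAAT and CCACG with 9 free bases between them, the heat shock element as GAA, TTC and GAA with 2 free bases in each gap, and the XBP1 type core as TGACGTGG, all on both strands, and capitals mark the matches. The end of the ER stress element and the end of the core are the same letters on opposite strands, so their matches can overlap.
Hspa5 (chr2:34771980-34772088, plus strand): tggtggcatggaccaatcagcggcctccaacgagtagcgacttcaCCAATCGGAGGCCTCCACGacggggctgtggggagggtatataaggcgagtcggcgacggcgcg
Hsp90b1 (chr10:86705488-86705694, minus strand): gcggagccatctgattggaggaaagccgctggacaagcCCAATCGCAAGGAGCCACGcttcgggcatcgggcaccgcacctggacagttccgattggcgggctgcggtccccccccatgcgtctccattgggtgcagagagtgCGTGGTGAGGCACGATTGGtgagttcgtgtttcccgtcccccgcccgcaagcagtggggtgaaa
Dnajc3 (chr14:118937782-118937890, plus strand): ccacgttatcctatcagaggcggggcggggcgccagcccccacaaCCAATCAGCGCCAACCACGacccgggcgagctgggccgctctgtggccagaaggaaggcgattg
Dnajb6 (chr5:29735807-29735897, plus strand): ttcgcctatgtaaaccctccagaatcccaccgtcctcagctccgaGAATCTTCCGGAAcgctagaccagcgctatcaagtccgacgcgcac
Hspe1 and Hspd1, shared (chr1:55088014-55088121, strand of Hspe1): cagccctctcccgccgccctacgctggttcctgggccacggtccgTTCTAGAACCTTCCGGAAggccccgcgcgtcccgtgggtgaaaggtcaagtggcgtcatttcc

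The ER stress element was present in 39 of 32851 mouse promoters (0.119%), which belong to 37 of 27025 genes (0.137%). Of the 54 genes 3 held it, namely Hspa5, Hsp90b1 and Dnajc3, with 2 matches in Hsp90b1. The heat shock element was present in 198 promoters (0.603%) of 179 genes (0.662%), and 4 of the 54 genes held it. These were Dnajb6, Hsph1 (after its start, not printed) and the divergent pair Hspe1 and Hspd1, whose shared stretch has overlapping matches on both strands. The XBP1 type core was present in 222 promoters (0.676%) of 193 genes (0.714%), and of the 54 genes Dnajc25 alone held it. A match is a description of these letters in this window and shows no binding.

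The dye-linked part passed the test in 18 of the 67 genes (limma, Benjamini-Hochberg adjusted p under 0.05 over all genes). Of these, 14 were negative, where 9.72% of all genes were, and 4 were positive, where 7.37% of all genes were. In both directions together 26.9% of the chaperone genes passed, against 17.1% of all genes. The median of the dye-linked part was -0.16 over the 67 genes and 0.02 over all genes, and 40 of 67 values were negative, against 7844 of 16504. At an unadjusted p under 0.05 there were 30 of the 67 genes, against 38.5% of all genes. No call held without array 3 or without array 4, among the 67 genes or among all 16504. At an unadjusted p under 0.05 in these limma fits were 28 and 20 of the 67 genes, and 4712 and 4015 of all genes. Without array 1 or without array 2 most calls were lost as well, among the 67 genes and among all genes. The constant part passed in 0 of the 67 genes, as in 0% of all genes (limma, 4 of 67 and 2235 of 16504 at an unadjusted p under 0.05). Its median was 0.06 over the 67 genes and 0.00059 over all genes, with 47 of 67 values positive, against 8270 of 16504.

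Arrays of opposite dye orientation did not overlap in 51 of the 67 genes when both directions were counted, with the first pair (1, 2) below the second (3, 4) in 34 and above it in 17. Over all genes these shares were 32.2% below and 35% above, so that separation as such was common on these arrays. The full sign change from negative on arrays 1 and 2 to positive on arrays 3 and 4 was seen in 24 genes (21.6% of all genes), and the opposite change in 13 (21.3% of all genes).

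**Figure D1:**
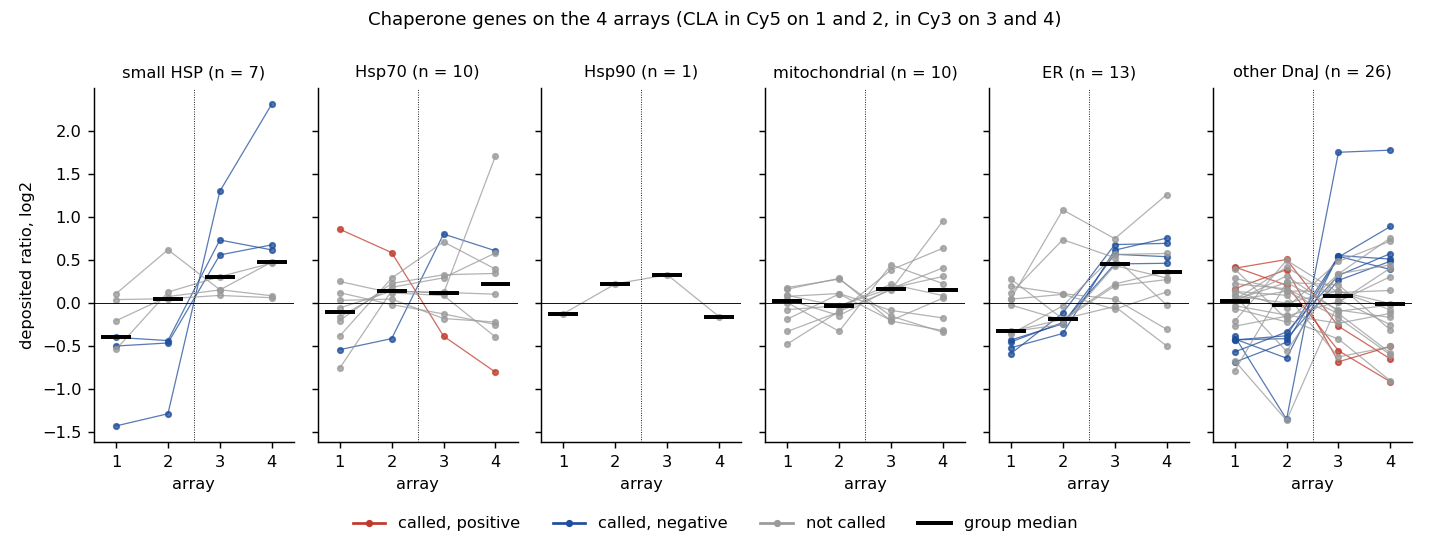
Deposited ratio (log2) of each of the 67 genes on arrays 1 to 4, in 6 groups; a line joins the values of 1 gene, and black bars are group medians. The ER group has medians of -0.33 and -0.19 on arrays 1 and 2 and of 0.45 and 0.37 on arrays 3 and 4, while the medians of the other DnaJ genes stay between -0.03 and 0.08.

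In the ER group most genes were lower on arrays 1 and 2 than on arrays 3 and 4. Its 13 genes had medians of -0.33, -0.19, 0.45 and 0.37 on arrays 1 to 4, where all genes had medians between -0.02 and 0.01. The dye-linked part had a median of -0.28 with 9 of 13 values negative, against 7844 of 16504 over all genes. Of the 13 genes 4 passed, all negative, against 9.72% of all genes. In 8 of the 13 genes arrays 1 and 2 lay below arrays 3 and 4, against 32.2% of all genes. Placement in the ER is background knowledge and is less sure for Dnajb12, Dnajc16, Dnajc18, Dnajc22 and Dnajc25. With the 8 genes whose place is best known, the median was -0.35, and 3 of 8 passed, all negative (9.72% of all genes).

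Hspa5 encodes BiP, the Hsp70 of the ER lumen and the sensor partner of the unfolded protein response. Its log2 ratio was -0.59 on array 1, -0.12 on array 2, 0.68 on array 3 and 0.69 on array 4. Arrays 1 and 2 lay below 0 and arrays 3 and 4 above it, with a dye-linked part of -0.52 (SE 0.11, limma adjusted p = 0.043). This call was lost with arrays scaled to one spread (adjusted p = 0.068) and with a single coefficient (adjusted p = 0.061). Hsp90b1 encodes Grp94, the Hsp90 of the ER. It was at -0.43, -0.24, 0.57 and 0.54 on arrays 1 to 4, with the 2 orientations apart and a dye-linked part of -0.44 (SE 0.08, adjusted p = 0.036). With a single coefficient its adjusted p was 0.052. Hspa13 encodes a short Hsp70 relative of the microsomes. It was at -0.45, -0.23, 0.45 and 0.46, nearly mirrored between the orientations, with a dye-linked part of -0.40 (SE 0.08, adjusted p = 0.044). The call was lost with scaled arrays (adjusted p = 0.059), with a trend over the feature number removed (0.057) and with a single coefficient (0.055).

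Of the J-domain genes counted in the ER group, some had this order of the arrays and some did not. Dnajc25, a membrane J protein, was at -0.52, -0.35, 0.61 and 0.75 on arrays 1 to 4 and had the largest dye-linked part of the ER group, -0.56 (SE 0.08, limma adjusted p = 0.029). Dnajc3, which restrains the ER stress kinase Eif2ak3 and holds misfolded chains, was at -0.36, -0.03, 0.56 and 0.57. Its dye-linked part of -0.38 (SE 0.09) had an adjusted p of 0.054 and did not pass. Dnajb11, the abundant soluble partner of BiP, was at -0.33, -0.25, 0.43 and 0.29, with a dye-linked part of -0.33 (SE 0.08, adjusted p = 0.056). Dnajc22 was at -0.28 and Dnajc16 at -0.17, neither past the threshold. In all of these 5 genes arrays 1 and 2 lay below arrays 3 and 4, as in 32.2% of all genes.

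Dnajb9, a stress-induced partner that helps remove misfolded proteins, did not follow BiP on these arrays. It was at 0.11, 0.74, 0.53 and -0.02, so that arrays 2 and 3 were high and arrays 1 and 4 near 0, and its dye-linked part was 0.09 (SE 0.16, limma adjusted p = 0.71). Dnajc10, an ER disulphide reductase, had a dye-linked part of 0.14, Dnajb12, a J protein of the ER membrane, 0.16, and Dnajc1, a translocon partner, 0.02. None of these passed. Dnajc18, a further membrane J protein, was at 0.05, 1.08, 0.75 and 1.26 and had the largest constant part of the 67 genes, 0.78 (SE 0.20, adjusted p = 0.35, unadjusted p = 0.014). It was above 0 on all 4 arrays, and array 1 alone was near 0.

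**Figure D2:**
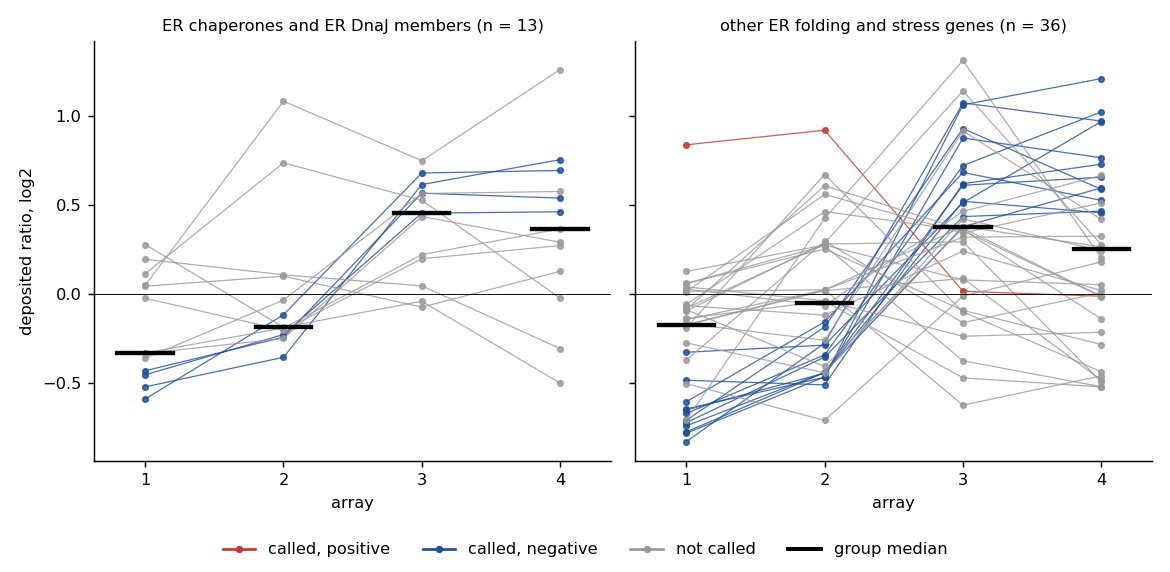
Deposited ratio (log2) on arrays 1 to 4 of the 13 ER chaperone and DnaJ genes (left) and of 36 other ER folding and stress genes (right), coloured by the call on the dye-linked part, with black bars for medians. Blue lines run from below 0 on arrays 1 and 2 to above 0 on arrays 3 and 4 in both panels, and Herpud1 is the red line.

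Other genes of ER folding and of the unfolded protein response were counted as a list of 39, of which 36 were measured. Of these, 12 passed with a negative dye-linked part (9.72% of all genes) and 1 with a positive one (7.37% of all genes). The list median was -0.25. The 4 with the smallest p were P4hb, a disulphide isomerase (-0.84), Canx, the lectin chaperone calnexin (-0.72), Pdia3, its disulphide isomerase partner (-0.58), and Ppp1r15a, a phosphatase subunit that ends the stress response (-0.62). The 1 positive gene was Herpud1, a stress-induced factor of ER degradation, at 0.84, 0.92, 0.02 and -0.01 on arrays 1 to 4. Its dye-linked part was 0.44 (SE 0.08, limma adjusted p = 0.034) and its constant part was 0.44 as well, so that it stood away from 0 on arrays 1 and 2 only. Outside the chaperones, 18 measured genes had a promoter that holds the ER stress element. Of these 18, 1 passed with a negative and 0 with a positive dye-linked part, against 9.72% and 7.37% of all genes. Their median was -0.08.

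In the Hsp70 group of the cytosol and nucleus, with 10 genes, the constitutive and the inducible Hsp70 had dye-linked parts of opposite sign. Hspa8, the constitutive Hsp70 (Hsc70), was at -0.54, -0.41, 0.80 and 0.61 on arrays 1 to 4, with a dye-linked part of -0.59 (SE 0.08, limma adjusted p = 0.027). Hspa1a, the stress-inducible Hsp70 controlled by Hsf1, was at 0.86, 0.59, -0.39 and -0.80, with a dye-linked part of 0.66 (SE 0.11, adjusted p = 0.033), the largest positive value of the 67 genes. Both genes had the 2 orientations fully apart, in opposite order (67.2% of all genes were apart in either order). Both kept their calls with centred or scaled arrays, with the feature-number trend removed, with a single coefficient and with robust moderation. Neither call held with an array left out. The dye-linked part then lay between -0.64 and -0.54 for Hspa8 and between 0.55 and 0.76 for Hspa1a. Near-identical copies of Hspa1a share its sequence closely, so that this probe may read more than 1 gene.

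The other 8 genes of the Hsp70 group did not pass, so that 2 of 10 did, against 17.1% of all genes. Hsph1, an Hsp110 exchange factor, was at -0.38, 0.29, 0.71 and 0.39, with a dye-linked part of -0.30 (SE 0.14, limma adjusted p = 0.20) and array 1 alone below 0. Hspa4, also of the Hsp110 kind, had a dye-linked part of -0.04 averaged over 3 features, which disagreed. On array 2 the features lay between -0.24 and 0.64, and on array 4 between -0.17 and 0.57. Its testis relative Hspa4l was at -0.16. Hspa2, known mainly from testis, was at -0.21, and Hspa1l, from testis too, at 0.12. Hspa14, which sits on ribosomes together with Dnajc2, was at 0.12, while Dnajc2 itself was at -0.34. The distant relatives Hspa12a and Hspa12b were at -0.61 and 0.17. Hspa12a ran from -0.76 on array 1 to 1.71 on array 4, with 0.14 and 0.11 on arrays 2 and 3, and had the largest standard error of the 67 genes, 0.31. The group median of the dye-linked part was -0.10, with -0.02 without array 1, -0.18 without array 2 and -0.05 with the feature-number trend removed.

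Of the cytosolic Hsp90 genes 1 is described; Hsp90ab1 and, among the inducible Hsp70 genes, Hspa1b were not analysed here. Hsp90aa1, the inducible form, was at -0.12, 0.22, 0.33 and -0.16 on arrays 1 to 4, with arrays 2 and 3 above 0 and arrays 1 and 4 below it. Its dye-linked part was -0.02 (SE 0.12, limma adjusted p = 0.93). Partners of Hsp70 and Hsp90 were counted as a list of 29, of which 28 were measured. Of the 28, 7 passed, all with a negative dye-linked part, against 9.72% of all genes (list median -0.19). The 4 with the smallest p were Cdc37, which brings kinases to Hsp90 (-1.15), the immunophilin Fkbp4 (-0.84), Sgta, which handles tail-anchored proteins (-0.72), and the mitochondrial and ER immunophilin Fkbp8 (-0.58). Of 5 listed heat shock factor genes, a factor-binding protein included, 3 were measured, namely Hsf2, Hsf4 and Hsbp1. Hsf1 was not among the measured genes. Of the 3, 0 passed, against 17.1% of all genes, with dye-linked parts between -0.10 and 0.22. The chaperonin TRiC and its helper prefoldin had 13 of 14 genes measured. Of the 13, 5 passed, all negative (9.72% of all genes), led by Cct3 (-0.94) and Cct7 (-0.75).

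The small heat shock proteins had 7 measured genes, of which 3 passed, all with a negative dye-linked part, against 9.72% of all genes. The group median of the dye-linked part was -0.30, with -0.13 without array 1 and -0.46 without array 2, and array medians were -0.40, 0.05, 0.31 and 0.47. Hspb8, which works with Bag3 in removing aggregated proteins, was at -0.50, -0.46, 0.56 and 0.67 on arrays 1 to 4, with a dye-linked part of -0.55 (SE 0.08, limma adjusted p = 0.027). Hspb2, known from muscle, was at -0.40, -0.44, 0.73 and 0.62, with nearly the same dye-linked part (-0.55, SE 0.08, adjusted p = 0.027). Hspb3, also from muscle, was at -1.43, -1.29, 1.30 and 2.31, the widest separation of the 67 genes, with a dye-linked part of -1.58 (SE 0.18, adjusted p = 0.023). All 3 genes were negative on arrays 1 and 2 and positive on arrays 3 and 4, as 21.6% of all genes were.

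Hspb1, the broadly expressed small heat shock protein also called Hsp27, was at -0.54, 0.13, 0.31 and 0.46. Its array 1 alone was below 0, and its dye-linked part of -0.30 (SE 0.13, limma adjusted p = 0.18) did not pass. Hspb6, also from muscle, at 0.11, 0.62, 0.15 and 0.08, was above 0 on all 4 arrays, with a constant part of 0.24 (SE 0.11, adjusted p = 0.41). Hspb9, from testis, had a dye-linked part of -0.19. Hspb7, from heart and muscle, was near 0 on every array, with 0.04, 0.05, 0.09 and 0.06. Skeletal muscle markers, set beside the muscle-type small heat shock genes, were measured for 10 of 10 genes. Of these, 8 had a negative dye-linked part and 1 passed (Myh2, negative), against 9.72% of all genes. The list median was -0.26, and the values ran from -0.53 to 0.02. Their part in the result was not tested. Ratios give no level, so defining markers of liver or of other cell types could not be read as present or absent.

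Markers of other cells a liver sample could hold were set beside the chaperone genes as lists. Of 10 measured hepatocyte markers 1 passed with a negative dye-linked part (Apob) and 2 with a positive one (Tat and Apoh). The median was 0.008, with 5 values negative and 5 positive. Over all genes 9.72% passed as negative and 7.37% as positive. The 8 measured markers of the acinar pancreas had a median of 1.59 on array 4 and of -0.14 to 0.14 on the others, with 0 calls (limma). Macrophage markers had a median of 0.61 on array 4 against -0.30 to 0.01 elsewhere, with 1 of 6 called and negative (Marco). Of the 6, 4 had a negative dye-linked part and 2 a positive one. Stellate cell and fibroblast markers had 1 of 8 called and negative (Acta2), with 4 values negative and 4 positive. Adipocyte markers had 1 negative call (Retn) and 1 positive (Car3) of 5, with 3 values negative and 2 positive. The endothelial, erythroid and lymphocyte lists had 0 calls in 7, 4 and 7 genes, with 4, 1 and 1 values negative. The part of these cells in the chaperone values was not tested.

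Hspb7 and Dnajc11 were spotted many times on each array and show how far spots of the same gene lay apart within an array. The 11 spots of Hspb7 had a median of 0.04 on array 1, with a lowest spot of -0.46 and a highest of 0.29, and their SD was between 0.09 and 0.19 over the 4 arrays. The 10 spots of Dnajc11 had SDs between 0.12 and 0.21. Their median was 0.13 on array 1, 0.27 on array 2, -0.18 on array 3 and -0.38 on array 4, and the highest spot on arrays 3 and 4 was -0.08 and -0.04. On array 1 the lowest Dnajc11 spot was 0.02, and on array 2 it was -0.01, just inside 0. The small dye-linked part of Dnajc11, 0.24 (SE 0.08, limma adjusted p = 0.098), thus separated the orientations spot by spot and did not pass over all genes. Its spots also differed with the feature number on array 4. Features 1288, 3402 and 4062 were at -0.63, -0.45 and -0.41 there, and features 18291, 21294 and 21418 at -0.04, -0.04 and -0.09. On array 1 the same features were at 0.07, 0.09 and 0.05, and at 0.13, 0.15 and 0.02. The cause was not tested. Single spots, which 62 of the 67 genes rest on, have no replicate spots to check them.

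**Figure D3:**
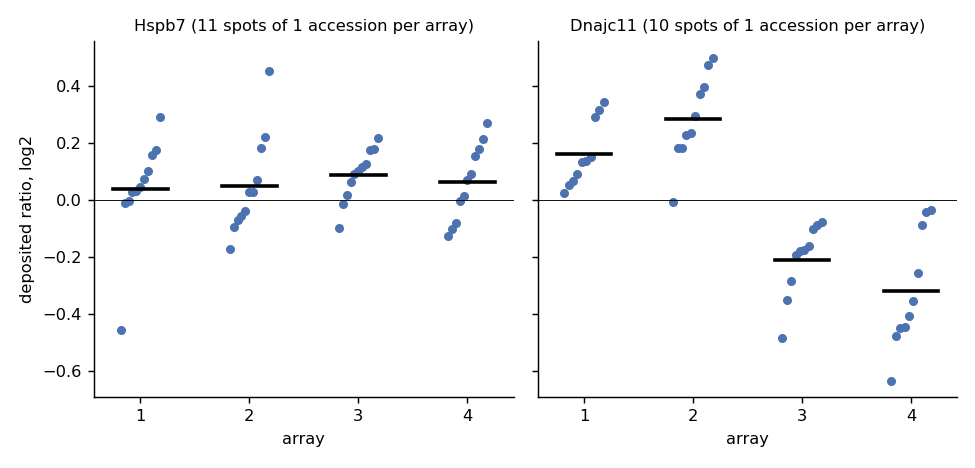
Deposited ratio (log2) of each replicate spot of Hspb7 (11 spots) and Dnajc11 (10 spots) on arrays 1 to 4, with black bars for means. Spots of Hspb7 scatter about 0 on all arrays, and those of Dnajc11 lie above 0 on arrays 1 and 2, but for 1 spot at -0.01, and below 0 on arrays 3 and 4.

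None of the 10 mitochondrial genes passed, against 17.1% of all genes (limma, with 3 of the 10 at an unadjusted p under 0.05, against 38.5% of all genes). Their array medians were 0.02, -0.04, 0.16 and 0.16, and the median of the dye-linked part was -0.11. Hspd1 and Hspe1, the chaperonin ring and its lid, share the promoter printed above, and a difference between their values was not tested. Hspd1 was at -0.08, -0.03, 0.17 and 0.31 on arrays 1 to 4, with the orientations apart and a dye-linked part of -0.15 (SE 0.08, limma adjusted p = 0.23). Hspe1 was at -0.19, 0.10, -0.20 and 0.06, with the orientations overlapping and a dye-linked part of 0.02 (SE 0.10, adjusted p = 0.92). Hspa9, the mitochondrial Hsp70, was at 0.04, -0.15, 0.17 and 0.41, with a dye-linked part of -0.17 (SE 0.09, adjusted p = 0.23).

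The mitochondrial J proteins went both ways without passing. Dnaja3, the J partner of Hspa9 in the matrix, was at -0.48, -0.10, 0.15 and 0.95, with a dye-linked part of -0.42 (SE 0.16, limma adjusted p = 0.14) and its highest value on array 4. Dnajc28 was at -0.36 (adjusted p = 0.061) and Dnajc30 at -0.25. Dnajc15 and Dnajc19, J proteins of the import motor, were at 0.24 and 0.11, both with arrays 1 and 2 above arrays 3 and 4, the order of Dnajc11. Dnajc4 was at -0.06. Of 15 measured genes of mitochondrial protein quality control (16 listed), Clpx, the ATPase of a matrix protease, passed with a positive value (0.67). Afg3l2, a protease of the inner membrane, passed with a negative one (-0.65). Over all genes 7.37% passed as positive and 9.72% as negative.

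**Figure D4:**
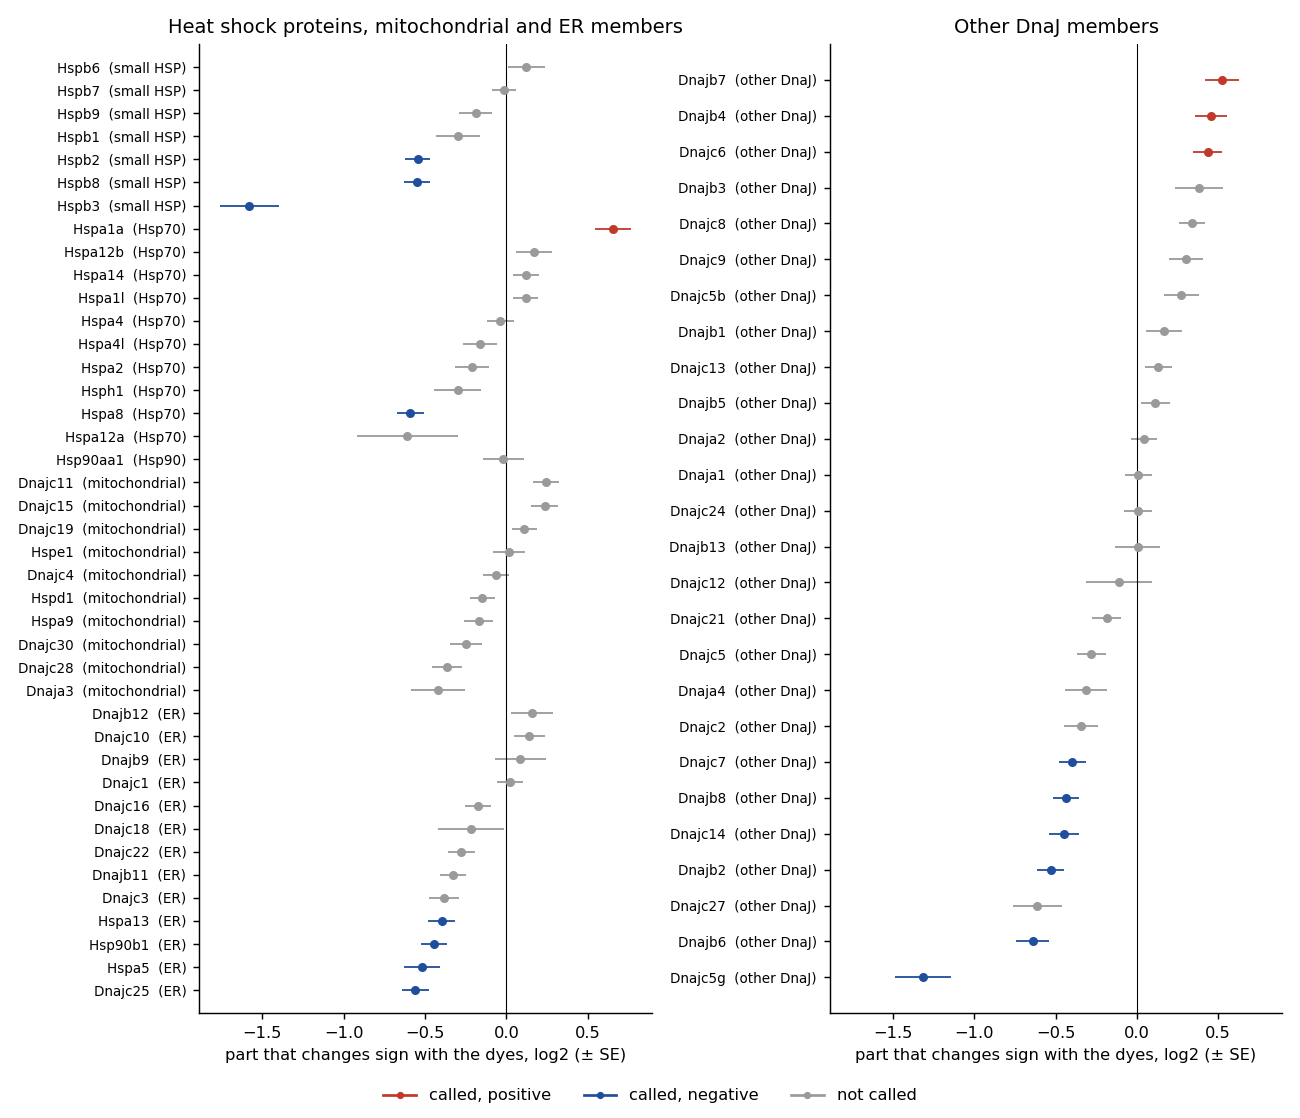
Dye-linked part (log2, point) with its SE (bar) for each of the 67 genes, by group, with genes past the threshold in blue (negative) or red (positive). The values run from -1.58 for Hspb3 to 0.66 for Hspa1a, and no mitochondrial gene and no Hsp90aa1 value is coloured.

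The other 26 DnaJ genes had a median of 0.005 in the dye-linked part. Of them 9 passed, against 17.1% of all genes. These were 6 negative (9.72% of all genes) and 3 positive (7.37% of all genes). Dnaja1, a farnesylated partner of Hspa8, was at 0.03, 0.14, 0.14 and -0.01 on arrays 1 to 4, with a dye-linked part of 0.01 (SE 0.08, limma adjusted p = 0.95). Dnaja2 was below 0 on all 4 arrays, from -0.24 to -0.03, with a constant part of -0.13 (SE 0.08, adjusted p = 0.48). Dnajb1, the stress-induced Hsp40 that shares control by Hsf1 with Hspa1a, was at 0.03, 0.42, 0.04 and -0.25, with overlapping orientations and a dye-linked part of 0.17 (SE 0.11, adjusted p = 0.32). Dnajb5 was at 0.11 and Dnaja4 at -0.31, and neither passed.

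Among the Dnajb genes that passed, Dnajb6, a suppressor of protein aggregation, was at -0.69, -0.46, 0.53 and 0.89. Its dye-linked part was -0.64 (SE 0.10, limma adjusted p = 0.031). Its promoter has a heat shock element, as have those of Hsph1, Hspe1 and Hspd1, which did not pass. Outside the chaperones, 71 measured genes had this element. Of these, 3 passed as negative and 4 as positive, against 9.72% and 7.37% of all genes, and their median was 0.06. Dnajb2, which hands clients to the proteasome, was at -0.42, -0.64, 0.55 and 0.51, with a dye-linked part of -0.53 (SE 0.08, adjusted p = 0.031) and a constant part of 0.00042. Dnajb4, a close relative of Dnajb1, went the other way at 0.40, 0.50, -0.27 and -0.65, with a dye-linked part of 0.46 (SE 0.10, adjusted p = 0.046). Its call was lost with the feature-number trend removed and with a single coefficient. Dnajb6, Dnajb2 and Dnajb4 all had arrays 1 and 2 on the opposite side of 0 from arrays 3 and 4. The sign change of Dnajb6 and Dnajb2 was seen in 21.6% of all genes, that of Dnajb4 in 21.3%.

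The testis genes Dnajb7 and Dnajb8 passed with opposite signs, at 0.52 (SE 0.10, limma adjusted p = 0.039) and -0.44 (SE 0.08, adjusted p = 0.036). Dnajb7 was at 0.42, 0.21, -0.55 and -0.92 on arrays 1 to 4, and Dnajb8 at -0.43, -0.38, 0.54 and 0.39. The call of Dnajb7 was lost with a single coefficient. The further testis genes Dnajb3 and Dnajb13 were at 0.38 and 0.004 and did not pass. In total 15 of the 67 genes are known mainly from testis, muscle or neurons, a grouping made after their values were seen. Of these 15, 6 passed (40%), 4 of them negative, and of the other 52 genes 12 passed (23.1%), 10 negative and 2 positive. Over all genes 17.1% passed, and the difference between these shares was not tested. No intensities were used here, so whether these probes lay above background is unknown.

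The Dnajc genes outside the ER and mitochondria have varied tasks, and 4 of 14 passed, against 17.1% of all genes. Dnajc5g, a testis relative of the synaptic cysteine string protein, was at -0.39, -1.35, 1.75 and 1.78, with a dye-linked part of -1.32 (SE 0.17, limma adjusted p = 0.025), the largest after Hspb3. Its relatives Dnajc5, the cysteine string protein itself, and Dnajc5b were at -0.28 and 0.27 and did not pass. Dnajc14, a membrane J protein that holds receptors in the ER but was not counted in the ER group, was at -0.57, -0.34, 0.32 and 0.57, with a dye-linked part of -0.45 (SE 0.09, adjusted p = 0.044). Dnajc7, which moves clients between Hsp70 and Hsp90, was at -0.43, -0.41, 0.26 and 0.49, with a dye-linked part of -0.40 (SE 0.08, adjusted p = 0.044). Dnajc6, the auxilin that strips clathrin coats in neurons, was at 0.17, 0.39, -0.68 and -0.50, with a positive dye-linked part of 0.44 (SE 0.09, adjusted p = 0.042). The orientations were apart in all 4 genes, as in 67.2% of all genes. The calls of Dnajc14 and Dnajc6 were lost with scaled arrays and with a single coefficient, that of Dnajc6 also with the feature-number trend removed, and that of Dnajc7 with a single coefficient.

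Of the remaining Dnajc genes, Dnajc8, a splicing-associated J protein, came nearest to the threshold, at 0.13, 0.09, -0.63 and -0.51 with a dye-linked part of 0.34 (SE 0.08, limma adjusted p = 0.051). Dnajc27, a small GTPase with a J domain, had a dye-linked part of -0.61 (adjusted p = 0.057) and the lowest constant part of the 67 genes, -0.41 (adjusted p = 0.36). Dnajc9, a histone chaperone, was at 0.30, and Dnajc13, a J protein of endosomes, at 0.13. Dnajc12, a partner of phenylalanine hydroxylase in the liver, was at -0.11 with values from -0.79 on array 1 to 0.24 on array 2. Dnajc24, of diphthamide synthesis, was at 0.006. Dnajc21, of ribosome assembly, was at -0.19 averaged over 2 features of 1 accession that disagreed. One feature was at 0.40 and 0.93 on arrays 3 and 4 and the other at -0.37 and -0.32.

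**Figure D5:**
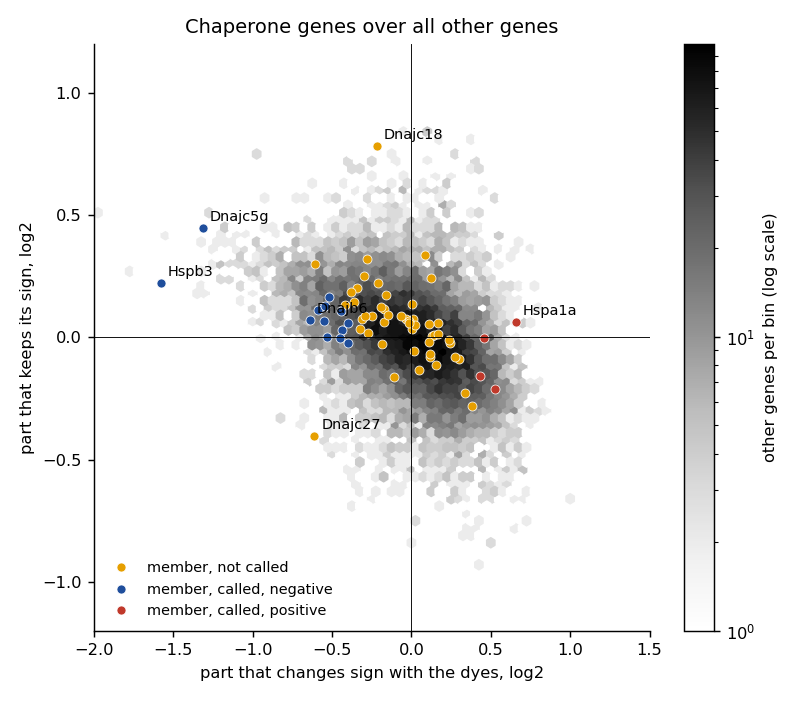
Dye-linked part (x axis, log2) and constant part (y axis, log2) of the 67 chaperone genes, over the number of other genes per bin in grey (log scale; 74 of 16437 other genes lie outside the axes). Called genes lie from -1.58 to -0.40 or from 0.44 to 0.66 on the x axis, where some genes that did not pass also lie, and Dnajc18 at 0.78 is the highest on the y axis.

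In the constant part, which is CLA over LA if the deposited ratios were already turned, the 67 genes lay between -0.41 and 0.78, and the lowest adjusted p was 0.35. The 4 genes at an unadjusted p under 0.05 were Dnajc18, Dnajc5 (0.32, SE 0.09), Dnajc8 (-0.23, SE 0.08) and Dnajc27. All 7 small heat shock genes had a positive constant part, with a median of 0.12. So had 12 of 13 ER genes (median 0.06), 8 of 10 Hsp70 genes (median 0.09) and 6 of 10 mitochondrial genes (median 0.09). Of the other DnaJ genes 13 of 26 were positive (median -0.0012), and over all genes 8270 of 16504. The group counts were not tested. BiP was at 0.17 (SE 0.11, limma adjusted p = 0.50) and Hspa8 at 0.11 (SE 0.08, adjusted p = 0.55). Only 3 genes, Hspb7, Hspb6 and Dnajc18, were above 0 on all 4 arrays (4.72% of all genes), and 1 gene, Dnaja2, was below 0 on all 4 (4.92% of all genes). Pooled liver RNA cannot tell fewer cells of a type from less RNA per cell.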

How the data were processed

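The deposited table holds log ratios of 2-colour arrays, 1 column per array and 22393 features without missing values. They are taken as log10 values, since the log base, centring, direction and upstream steps are not recorded in the labels or file, and the deposited values ran from -3.17 to 3.28. Array medians of the deposited values were 0.0010, -0.0023, -0.0020 and -0.0011. Probes were named from the platform annotation: 18218 features had 1 symbol, 16 several and 4159 none, and only the first were used. RefSeq gene numbers (GRCm38.p6) matched 18175 of them and changed 0 symbols. Spots of an accession with at least 8 features were averaged, then probes of a gene.

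Values were converted to log2 and fitted over 16504 genes in R 4.3.3 with limma 3.58.1 (lmFit, eBayes; 2 residual and 2.66 prior degrees of freedom), with a constant coefficient and one that changes sign with the dye orientation, Benjamini-Hochberg adjusted over all genes. Named genes are 20 major chaperones where measured (18 were), all called genes and, in each group, the 2 smallest p in each coefficient; the other members are given by their fitted values. Groups follow general knowledge of where each protein works. Members and lists were chosen with earlier results of these data known. Alternatives were centring, scaling, plain averaging, removal of a lowess trend over the feature number (fraction 0.1), a single coefficient, robust moderation, probes for genes, a threshold of 0.1 and leaving out each array. Figures were drawn with matplotlib 3.10.9.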

Additional observations from a re-analysis of the deposited data

How the results depend on the processing

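Over all 16504 genes the dye-linked calls were 2820 as reported, 2853 with centred arrays, 2821 with plain averaging and 2711 with robust moderation. They were 2007 with scaled arrays, 3078 with the feature-number trend removed and 1202 with a single coefficient. The count of 18 chaperone genes past the threshold was 18 with centred arrays, plain averaging, robust moderation or probes in place of genes. It was 14 with scaled arrays, 17 with the feature-number trend removed (15 negative and 2 positive, against 14 and 4) and 27 at an adjusted p under 0.1. It was 10 with a single coefficient and between 0 and 2 when an array was left out, where all genes together gave 0 to 735 calls. Without the genes known mainly from testis, muscle or neurons, a setting chosen after seeing the data, it was 12. The constant part had 0 calls in each of these settings. Several group medians moved by over 1.5 times. With an array left out, the dye-linked median lay between -0.46 and -0.13 for the small group, -0.18 and -0.02 for Hsp70, -0.35 and -0.24 for the ER group and -0.12 and -0.09 for the mitochondrial group, which was at -0.07 over its genes of best known place. Hsp90aa1 lay between -0.14 and 0.10. The constant median then lay between 0.05 and 0.19 for the small group, 0.07 and 0.14 for Hsp70, 0.05 and 0.12 for the ER group and 0.04 and 0.06 for the mitochondrial group, against 0.12, 0.09, 0.06 and 0.09 with all arrays, and Hsp90aa1 between -0.06 and 0.19. With scaled arrays it was 0.04 for the small, 0.03 for the ER and 0.05 for the mitochondrial group, and as a mean 0.14 for the ER group and 0.06 for the mitochondrial group. The dye-linked median of the other DnaJ genes went from 0.005 to -0.0456 with the trend removed and to -0.0936 as a mean, and lay between -0.0853 and 0.0277 with an array left out. The cause was not tested. No paired analysis was possible because the labels give no replicate numbers that tie arrays of the 2 dye orientations. Signal over background is unknown here, so dim probes could not be set apart.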
